A study of Mus musculus with 12 samples.

Results

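The nuclear genes of oxidative phosphorylation were described in lungs of newborn C57/Bl6 mice by RNA-seq. Members were the genes of the count table whose symbols start with Ndufa, Ndufb, Ndufc, Ndufs, Ndufv, Uqcr, Cox4, Cox5, Cox6, Cox7, Cox8 or Atp5, with Sdha, Sdhb, Sdhc and Sdhd. The complex I assembly genes named Ndufaf, pseudogenes and the muscle forms Cox6a2, Cox7a1 and Cox8b were left out, and at least 100 counts over all libraries were required. This gave 80 members of 23478 genes: 38 of complex I, 4 of complex II, 8 of complex III, 13 of complex IV and 17 of complex V. Cox7b2 (19 counts) and Cox8c (0 counts) missed the minimum. All 80 members passed the filter on low counts, which 15761 genes passed.

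On day 0 pups were injected intraperitoneally with saline or with aurothioglucose (ATG; 25 mg/kg), a gold drug known to block thioredoxin reductase, and then spent 72 h in room air or in more than 95% oxygen (hyperoxia). The 4 groups of 3 samples were saline room air, ATG room air, saline hyperoxia and ATG hyperoxia, all of the same strain and without a genetic change. RNA came from lungs after the lavage fluid was taken off. The labels name no animals or litters, so p-values measure only the spread between these samples, which may be technical.

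Oxidative phosphorylation takes place in the inner mitochondrial membrane. Complexes I (NADH dehydrogenase) and II (succinate dehydrogenase) pass electrons to ubiquinone, complex III passes them to cytochrome c, and complex IV (cytochrome c oxidase) reduces oxygen. Complexes I, III and IV pump protons, and complex V (ATP synthase) makes ATP from the proton gradient. Most subunits are encoded in the nucleus and imported, and a few are encoded in mitochondrial DNA; those were not analysed here. In the lung the alveolar type 2 cell, which makes surfactant, is known for its many mitochondria, and heart muscle is richer in them still.

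Promoters of these genes are known to hold sites for NRF1, for ETS-family factors such as GABP, for YY1 and for estrogen-related receptors (ERR), which are regarded as regulators of mitochondrial genes. RefSeq promoter windows (GRCm38.p6, 250 bases before to 50 bases after the start) were found for 67 member genes with 73 windows, among 32851 windows of the same length. The motifs GCGCA, any base, GCGC (NRF1), CCGGAAG (ETS), AAGATGGC (YY1) and CAAGGTCA (ERR) were searched as written and as their reverse complement, and matches of different motifs could overlap. NRF1 letters were found in 18 of 73 member windows (24.7%), which belong to 17 genes, and in 4.60% of all windows. ETS letters were in 21.9% and 8.86%, YY1 letters in 16.4% and 2.75%, and ERR letters in 5.48% and 1.56%. The windows were not matched for base composition or expression, so these shares cannot be read as particular to the members. The sequences below show these letters in genes that the results turn on, in capitals and 5′ to 3′ on the gene's strand. All lie on the minus strand. They are taken from before the start of Sdhd (chr9:50603864-50603953) and Sdha (chr13:74350241-74350363) of complex II, Cox6a1 (chr5:115348959-115349145) of complex IV, and Uqcrh (chr4:116075071-116075105) of complex III. From complex V come Atp5c1 (chr2:10080433-10080474), Atp5e (chr2:174464172-174464228), Atp5g3 (chr2:73911346-73911403) and Atp5g2 (chr15:102671055-102671114). Atp5g2 is shown as a gene with the letters that did not pass the hyperoxia test.
Sdhd (NRF1, then ETS): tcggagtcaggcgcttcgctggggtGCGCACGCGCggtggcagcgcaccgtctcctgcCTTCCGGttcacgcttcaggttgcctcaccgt
Sdha (NRF1 at 3 places): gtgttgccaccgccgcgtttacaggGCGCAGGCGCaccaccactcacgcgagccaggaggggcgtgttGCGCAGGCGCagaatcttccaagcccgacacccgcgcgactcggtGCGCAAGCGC
Cox6a1 (NRF1 at 2 places, then ETS): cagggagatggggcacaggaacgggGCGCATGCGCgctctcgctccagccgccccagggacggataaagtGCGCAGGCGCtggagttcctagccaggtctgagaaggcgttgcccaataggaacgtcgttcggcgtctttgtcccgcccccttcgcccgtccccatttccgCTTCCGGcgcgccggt
Uqcrh (ETS): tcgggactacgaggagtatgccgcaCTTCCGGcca
Atp5c1 (NRF1): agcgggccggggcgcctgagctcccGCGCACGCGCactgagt
Atp5e (ETS): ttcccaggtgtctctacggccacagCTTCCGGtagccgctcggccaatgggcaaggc
Atp5g3 (ERR): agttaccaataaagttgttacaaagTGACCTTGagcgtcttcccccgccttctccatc
Atp5g2 (NRF1): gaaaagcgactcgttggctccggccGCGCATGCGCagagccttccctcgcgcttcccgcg
Of the genes with a window, NRF1 letters were in 7 of the 32 that passed the hyperoxia test below (21.9%) and in 10 of the 35 that did not pass (28.6%). A match is a description of the letters and not evidence of binding.

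Total counts ran from 14331749 to 20486735 per library. Levels are CPM, the counts scaled to a common library size after TMM normalization, and changes are log2 fold changes from edgeR's quasi-likelihood test with Benjamini-Hochberg adjustment over the 15761 genes and a threshold of 0.05. Markers of alveolar type 2 cells summed to between 12774 and 16971 CPM in all 12 libraries, so the defining cells of the labelled tissue were present. Markers of heart and skeletal muscle were also found in the libraries, and whether they came from tissue outside the lung was not tested. Saline hyperoxia 2 and ATG hyperoxia 2 were rich in cardiac transcripts: 9 of 10 and 10 of 10 cardiomyocyte markers were above every other library except each other, with summed levels of 3195 and 7056 CPM. The other 4 hyperoxia libraries had 429 to 640 CPM and the room air libraries 575 to 990 CPM, and no marker of the list was at 0 in any library. Nppa, which encodes atrial natriuretic peptide, reached 270 and 1108 CPM in the same libraries and stood at 1.85 to 3.55 CPM elsewhere. Saline hyperoxia 1 had 365 CPM of skeletal muscle markers, against 20.9 to 68.5 CPM elsewhere. Results are therefore given with all libraries and without the cardiac-rich pair.

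Members differed widely in level. Mean CPM over the groups ran from 4.99 for Atp5k, a small membrane subunit of ATP synthase, to 1046 for Atp5b, its catalytic beta subunit, with a median of 33.0. Per kilobase of transcript, Atp5b (546 CPM per kb), Cox6a1 (336) and Cox8a (289) stood highest, followed by the alpha subunit gene Atp5a1 (196). The general subunit 4 gene Cox4i1 had 153 CPM per kb and its lung form Cox4i2 had 18.5. Ndufa4 had 66.4 CPM per kb and the related Ndufa4l2 13.2. Of the 3 genes that encode the same mature c subunit of ATP synthase, Atp5g3 had 117, Atp5g1 83.5 and Atp5g2 38.4 CPM per kb. In complex II the order per kilobase was Sdhd (91.9), Sdha (77.7), Sdhc (32.3) and Sdhb (28.0).

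Hyperoxia was compared with room air first averaged over the injections. Members of every complex rose, by small amounts. Of 80 members, 39 rose, 1 fell and 40 did not pass, where 22.4% of all genes tested passed (11.0% up and 11.3% down). The median log2 fold change of the members was 0.29, a 1.22-fold difference, and that of all genes was −0.00. Of the members 76 had a positive estimate and 4 a negative one. Summed over members, levels ran from 4199 to 4769 CPM in the 6 room air libraries and from 5081 to 6521 CPM in the 6 hyperoxia libraries, so the groups did not overlap. Members took 0.425% to 0.486% of the counts in room air and 0.506% to 0.646% in hyperoxia. In bulk lung, a change in the share of a cell type and a change in RNA per cell cannot be told apart.

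**Figure D1:**
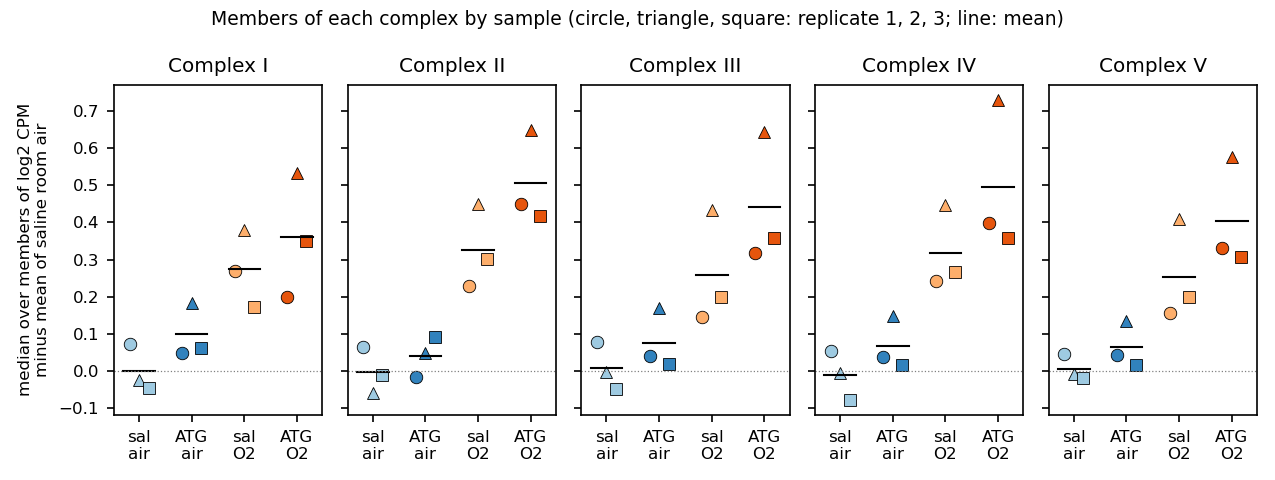
Median over the members of each complex of log2 CPM minus the mean of saline room air, by library and complex; symbols mark the replicate and lines the group mean (sal, saline; air, room air; O2, hyperoxia). For complexes II, IV and V every hyperoxia library lies above every room air library, and for I and III ATG room air 2 lies above the lowest saline hyperoxia library; ATG hyperoxia 2, a cardiac-rich library, is the highest in each panel (0.53 for complex I, 0.73 for complex IV).

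The libraries differed in how many members were high. In each hyperoxia library, between 33 of 80 members (saline hyperoxia 3) and 67 of 80 (ATG hyperoxia 2) stood above all 6 room air libraries. ATG hyperoxia 2 had the highest CPM of the series for 59 of 80 members. The same counts were not made over all genes, so these cannot be read as particular to the members. Without the cardiac-rich pair the summed level in the remaining 4 hyperoxia libraries was 5081 to 5566 CPM, still above every room air library. The refit then called 28 members (27 up and 1 down, all among the first 40; 20.1% of all genes), with a median of 0.23. The cardiac marker sum of those 4 libraries was not above that of room air.

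**Figure D2:**
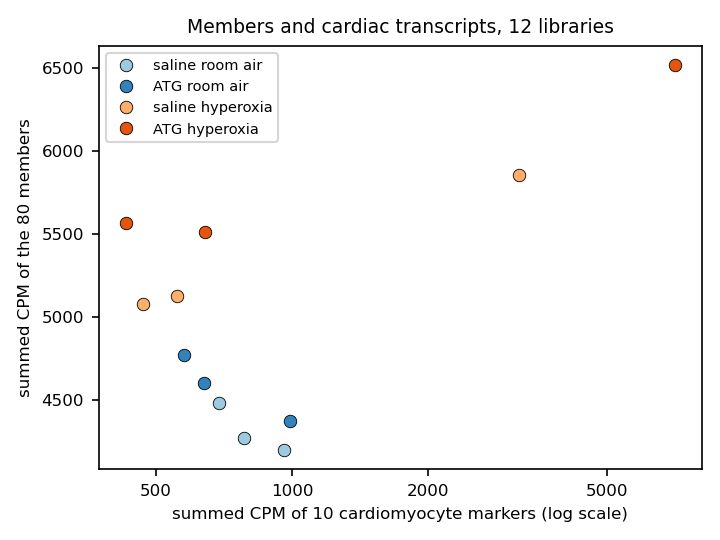
Summed CPM of the 80 members (vertical axis) against summed CPM of the 10 cardiomyocyte markers (horizontal axis, log scale), 1 point per library. The cardiac-rich libraries, at 3195 and 7056 CPM of markers, have the highest member sums, 5858 and 6521 CPM, and the other 4 hyperoxia libraries lie above room air at marker levels of 429 to 640 CPM.

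**Figure D3:**
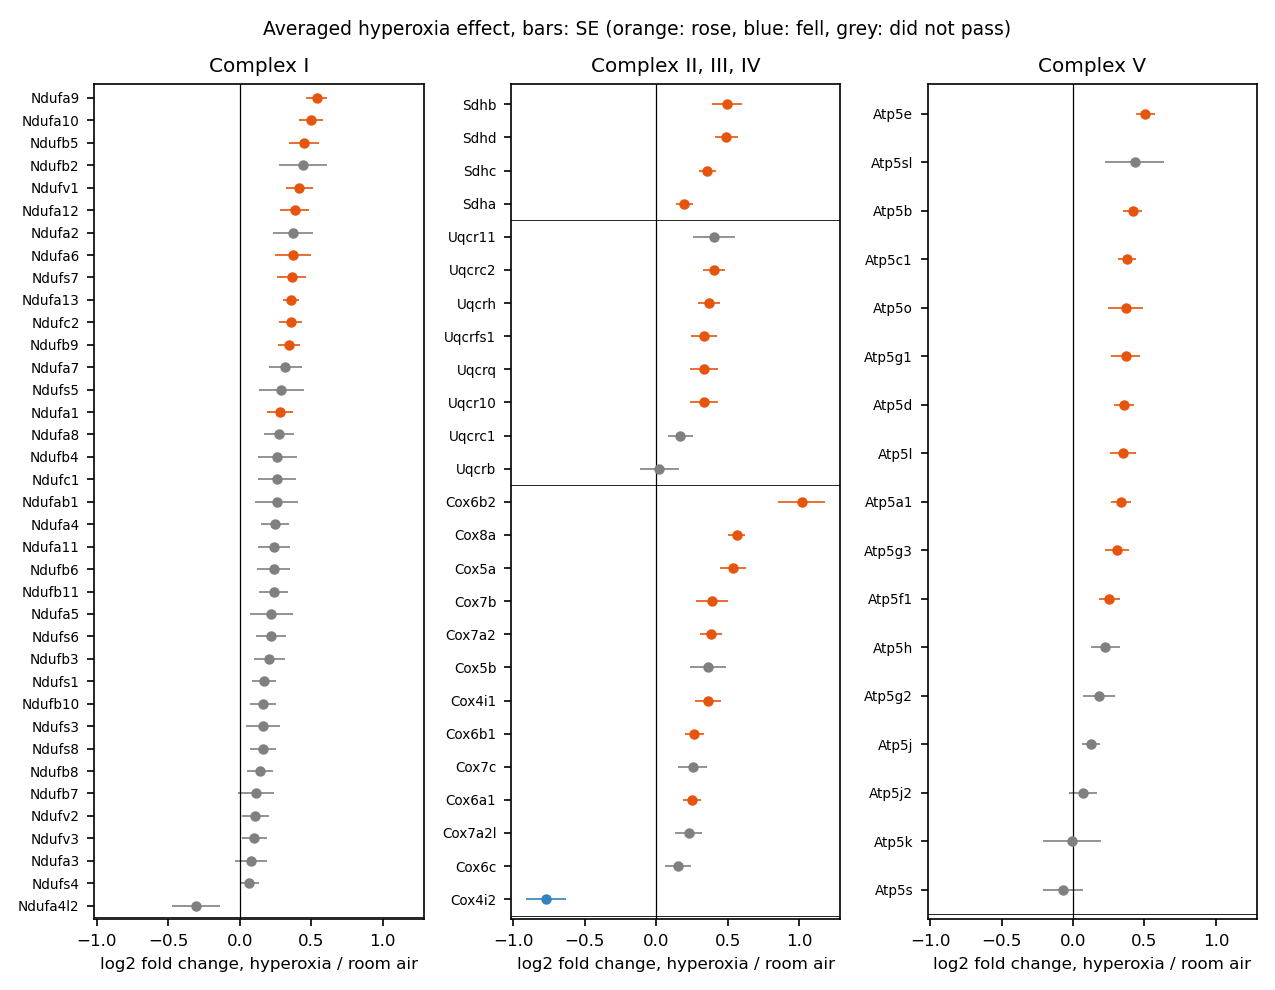
Log2 fold change of hyperoxia against room air, averaged over injection, for the members by complex, all but 1 of which are drawn; bars are the SE of the fit (12 libraries). Orange points rose, the blue point fell, grey points did not pass. Estimates run from −0.77 (Cox4i2) to 1.02 (Cox6b2), and most lie between 0 and 0.5.

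In complex I, 12 of 38 members rose and none fell, with a median of 0.26 (8 of 38 and 0.20 without the cardiac-rich pair). Among the 7 core subunit genes, which carry the flavin and iron-sulfur clusters, 3 rose; among the 29 accessory subunit genes 9 did. Ndufa9 (chromosome 6, 126821863 to 126849144), an accessory subunit near the quinone site, stood at 39.4, 39.1 and 43.5 CPM in saline room air and 40.6, 43.9 and 46.7 CPM in ATG room air. In hyperoxia it stood at 63.1, 60.5 and 52.7 CPM after saline and 61.0, 72.6 and 57.9 CPM after ATG. No hyperoxia library overlapped room air, and the log2 fold change was 0.54 (SE 0.08, edgeR adjusted p = 0.00016). Ndufa13, an accessory subunit also known as GRIM-19, rose by 0.36 (SE 0.06) from group means of 100 ± 6.3 and 111 ± 9.1 to 130 ± 3.8 and 140 ± 6.3 CPM (mean ± SD, n = 3). Ndufv1, the flavin-binding core subunit, rose by 0.42 (SE 0.10, adjusted p = 0.00592). That call ended (0.30) when saline hyperoxia 1, rich in skeletal muscle transcripts, was left out along with the cardiac-rich pair. Ndufs1, the largest core subunit, did not pass (0.17, SE 0.08, adjusted p = 0.156), nor did the acyl carrier protein gene Ndufab1 (0.26, SE 0.15). Ndufa4, counted here by its name but now assigned to complex IV, and Ndufa4l2, its hypoxia-responsive relative, did not pass, with estimates of 0.25 (SE 0.10) and −0.31 (SE 0.17). Ndufa4l2 was the lowest estimate of complex I, and its room air range of 9.42 to 16.9 CPM covered most of its hyperoxia range of 8.80 to 13.7 CPM. The 3 genes whose log2 CPM ran most like it over the 12 libraries, Asz1, Catsper4 and Fsd1 (Pearson r 0.88, 0.87 and 0.85), had means of 2.11, 0.42 and 0.42 CPM, close to the counting floor.

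All 4 genes of complex II rose, with a median of 0.42 (3 of 4 and 0.33 without the cardiac-rich pair). Sdhd (chromosome 9, 50596340 to 50603849), a membrane anchor whose promoter is printed above, stood at 102, 88.4 and 89.1 CPM in saline room air and 79.4, 93.7 and 111 CPM in ATG room air. In hyperoxia it stood at 114, 132 and 123 CPM after saline and 142, 153 and 129 CPM after ATG. The groups did not overlap, and it rose by 0.49 (SE 0.08, adjusted p = 0.000514). Sdhc, the other anchor, rose by 0.36 (SE 0.06), from a room air range of 85.9 to 95.1 CPM to 103 to 134 CPM. Sdhb, the iron-sulfur subunit, rose by 0.50 (SE 0.10, adjusted p = 0.00315); its room air highest, 29.7 CPM, lay above its hyperoxia lowest, 27.7 CPM in saline hyperoxia 1. Sdha, the flavoprotein, rose least, by 0.20 (SE 0.06, adjusted p = 0.0261). The call for Sdha ended without the cardiac-rich pair (0.14), and also without saline hyperoxia 2 (0.17) or saline room air 2 (0.19) alone.

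In complex III, 5 of 8 members rose, with a median of 0.33 (2 of 8 and 0.25 without the cardiac-rich pair). Uqcrc2, a core subunit, had 63.0, 68.6 and 70.0 CPM in saline room air, 68.0, 83.8 and 67.3 CPM in ATG room air, 76.9, 92.6 and 89.6 CPM in saline hyperoxia, and 92.3, 110 and 95.4 CPM in ATG hyperoxia. Only ATG room air 2 overlapped the hyperoxia range, and the gene rose by 0.40 (SE 0.08, adjusted p = 0.00143). Uqcrh, the hinge subunit that meets cytochrome c, rose by 0.37 (SE 0.08, adjusted p = 0.00318) from 30.8 to 35.7 CPM in room air to 40.1 to 51.3 CPM in hyperoxia, without overlap. Uqcrfs1, the Rieske iron-sulfur protein, rose by 0.34 (SE 0.09), a call that ended without the cardiac-rich pair (0.24, adjusted p = 0.0569). The other core gene Uqcrc1 did not pass (0.17, SE 0.08), nor did the small subunit genes Uqcr11 (0.40, SE 0.14), the highest estimate of the complex, and Uqcrb (0.02, SE 0.13), the lowest.

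Complex IV held the widest range of responses: 8 of 13 members rose and 1 fell, with a median of 0.36 (7 up, 1 down and 0.24 without the cardiac-rich pair). Of the 10 general forms 7 rose. Cox8a (chromosome 19, 7215158 to 7217616), the general form of subunit 8, had the smallest adjusted p of the members. It stood at 127, 130 and 120 CPM in saline room air and 129, 141 and 123 CPM in ATG room air, and at 196, 186 and 176 CPM and 186, 210 and 182 CPM in the hyperoxia groups. The lowest hyperoxia library was above the highest room air library, and the log2 fold change was 0.56 (SE 0.06, adjusted p = 1.26e-05). Cox5a, which sits next to the catalytic core, rose by 0.54 (SE 0.09, adjusted p = 0.000749), from at most 20.9 CPM in room air to between 22.2 and 33.4 CPM in hyperoxia. Cox4i1 rose by 0.36 (SE 0.09), an estimate of 0.23 without the cardiac-rich pair that still passed. Cox7a2, Cox6b1 and Cox6a1 rose by 0.38, 0.27 and 0.25, Cox6b1 not without all 3 muscle-rich libraries (0.22). Cox5b, the zinc-binding subunit, did not pass (0.36, SE 0.12, adjusted p = 0.0503), nor did Cox7a2l, which helps to join complexes III and IV into supercomplexes (0.23, SE 0.09).

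The alternative forms of complex IV subunits went in opposite directions. Cox6b2 (chromosome 7, 4751792 to 4753094), a form known mainly from testis, had 9.24, 6.83 and 9.42 CPM in saline room air and 8.61, 12.7 and 8.26 CPM in ATG room air. It had 14.8, 21.9 and 19.6 CPM in saline hyperoxia and 16.1, 14.6 and 24.1 CPM in ATG hyperoxia. The groups did not overlap, and its rise of 1.02 (SE 0.17, adjusted p = 0.000459) was the largest of the members. Cox4i2 (chromosome 2, 152753916 to 152765039), the lung form of subunit 4, known to respond to low oxygen, had 15.9, 16.7 and 14.0 CPM in saline room air and 24.0, 16.7 and 14.5 CPM in ATG room air. It had 11.2, 11.0 and 8.83 CPM in saline hyperoxia and 8.33, 8.58 and 11.4 CPM in ATG hyperoxia, below every room air library. It fell by 0.77 (SE 0.14, adjusted p = 0.00115), the only member to pass downward, and Cox4i1 moved the other way.

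**Figure D4:**
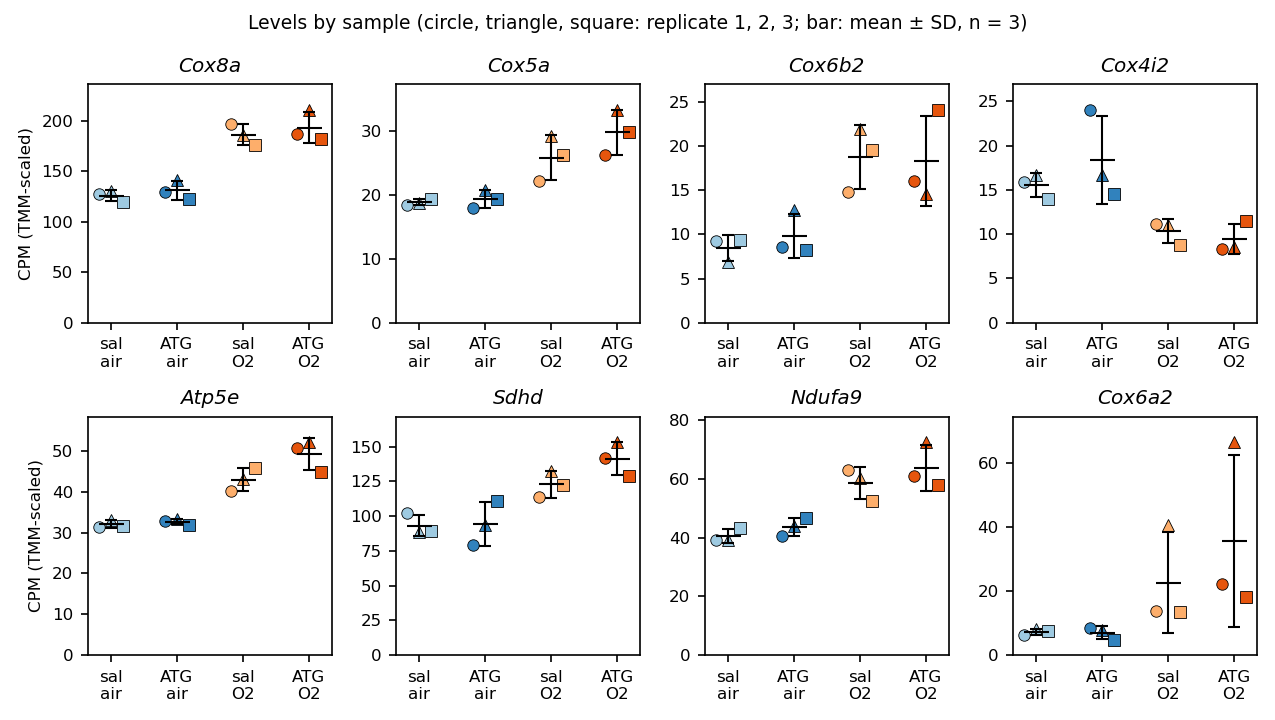
CPM by library of 7 members and of the muscle form Cox6a2; bars are the mean ± SD of 3 libraries (sal, saline; air, room air; O2, hyperoxia) and symbols mark the replicate. Cox8a, Cox6b2, Cox5a, Atp5e, Sdhd and Ndufa9 are higher in every hyperoxia library than in any room air library, Cox4i2 is lower, and Cox6a2 is highest in the cardiac-rich libraries at 40.7 and 66.4 CPM.

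Cox4i2 is known from pericytes and vascular smooth muscle, and some markers of those cells fell with it. Of 8 such markers 4 fell and none rose, with a median of −0.26, beside 11.3% of all genes that fell. Those that fell were the contractile genes Myh11 (−0.61) and Acta2 (−0.43), and the pericyte genes Higd1b (−0.50) and Pdgfrb (−0.25). Cspg4 (0.19) and Notch3 (0.07) had positive estimates and did not pass. The summed level of the 8 was 1548 to 1851 CPM in room air and 1208 to 1425 CPM in hyperoxia, without overlap. Most of that sum was Acta2 (660 to 855 CPM in room air) and Myh11 (345 to 489 CPM). Taken singly, Acta2, Myh11 and Higd1b did not overlap between room air and hyperoxia, and Pdgfrb, Cspg4, Kcnj8, Abcc9 and Notch3 did. The call for Pdgfrb ended without the cardiac-rich pair (−0.17) and without any of several single libraries, and that for Higd1b without the 3 muscle-rich libraries (−0.36). The part of these cells in the change of Cox4i2 was not tested. Over the 12 libraries the log2 CPM of Cox4i2 ran most like that of Gja4, the connexin 37 gene (Pearson r = 0.94), Smg6 (0.93) and Fads2 (0.93); the points share the oxygen groups. Cox4i2 overlaps Bcl2l1 in the annotation, and without the strand of the counts their reads cannot be told apart there. Bcl2l1 rose by 0.44 (adjusted p = 0.0243). That call was lost on leaving out saline hyperoxia 3, ATG hyperoxia 1 or saline room air 3.

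In ATP synthase, 10 of 17 members rose and none fell, with a median of 0.34 (7 of 17 and 0.23 without the cardiac-rich pair). All 5 genes of the catalytic head and central stalk rose, with estimates from 0.34 to 0.51. These were Atp5a1, Atp5b, Atp5c1, Atp5d and Atp5e, and all 5 rose without the cardiac-rich pair too. Atp5e (chromosome 2, 174461075 to 174464101), the epsilon subunit, had 31.5, 33.1 and 31.7 CPM in saline room air and 32.9, 33.2 and 31.9 CPM in ATG room air. It had 40.1, 43.1 and 45.8 CPM in saline hyperoxia and 50.8, 52.1 and 44.9 CPM in ATG hyperoxia. The room air libraries lay close together and the hyperoxia libraries all above them, and the gene rose by 0.51 (SE 0.07, adjusted p = 9.33e-05). Atp5b rose by 0.42 (SE 0.07, adjusted p = 0.000401), from 842 to 1004 CPM in room air to 1052 to 1359.6 CPM in hyperoxia. Atp5a1, the alpha subunit, rose by 0.34 (SE 0.07). Of the c subunit genes Atp5g1 (0.37, SE 0.10) and Atp5g3 (0.31, SE 0.08) rose and Atp5g2 did not pass (0.18, SE 0.11). Without the cardiac-rich pair the estimate for Atp5g1 was 0.21 and no longer passed, and that for Atp5g3 was 0.19 and did. Of the 7 peripheral stalk and membrane genes 3 rose (1 without the pair). Neither Atp5s nor Atp5sl, which are no longer counted as subunits, passed, and Atp5s had the lowest estimate of the group (−0.07, SE 0.14).

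The muscle forms that the rule leaves out rose in the averaged comparison, apart from Cox8b. Cox6a2, the heart and skeletal muscle form of subunit 6a, ran from 4.61 to 8.48 CPM in room air and from 13.4 to 22.2 CPM in the 4 hyperoxia libraries that were not cardiac-rich, and stood at 40.7 and 66.4 CPM in those that were. It rose by 2.00 (SE 0.35, adjusted p = 0.000845), and by 1.24 (SE 0.16, adjusted p = 5.56e-05) without the cardiac-rich pair. Cox7a1 rose by 2.06 (SE 0.53, adjusted p = 0.0118) at levels of at most 5.44 CPM, and did not pass without the pair (1.33, adjusted p = 0.0953). Cox8b did not pass, with 1.07 (SE 0.59), and turned to −0.27 without the pair. Cyc1, the cytochrome c1 subunit of complex III, and Cycs, cytochrome c itself, rose by 0.46 (SE 0.10) and 0.48 (SE 0.11), and by 0.34 and 0.37 without the pair.

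Genes that assemble the complexes and genes of the citrate cycle were counted beside the members, without a test of the difference. Of tested assembly genes, 2 of 13 rose for complex I, 0 of 2 for complex II, 0 of 5 for complex III, 4 of 18 for complex IV and 0 of 3 for ATP synthase, and none fell, beside 11.0% of all genes that rose and 11.3% that fell. Cox17, a copper chaperone, rose by 0.76 (SE 0.12) and Lrpprc, which stabilises mitochondrial messenger RNA, by 0.45 (SE 0.06). Cox10, which makes heme for complex IV, rose by 0.39 and not without the cardiac-rich pair (0.31), and Coa3 rose by 0.33, a call that was lost on leaving out saline hyperoxia 3, ATG hyperoxia 1 or saline room air 3. For complex I, Ndufaf4 rose by 0.38, which ended without ATG room air 3 or ATG hyperoxia 2, and Ndufaf1 by 0.41, which ended under most alternatives (0.26 without the cardiac-rich pair). Of 13 citrate cycle genes, which feed complexes I and II, 6 rose and none fell, with a median of 0.23; Cs and Fh1 did not pass without the cardiac-rich pair (0.16 and 0.21) and the other 4 did. Fh1 did not pass without saline room air 1 or 2, saline hyperoxia 2 or ATG hyperoxia 2 either. Idh3b and Idh3a of isocitrate dehydrogenase rose by 0.44 and 0.59, and mitochondrial malate dehydrogenase Mdh2 by 0.38.

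Within each injection fewer members passed, with medians of similar size. After saline, 14 members rose and none fell (9.19% of all genes passed, 4.70% up and 4.50% down), with a median of 0.29. After ATG, 21 rose and 1 fell (11.7% of all genes, 5.41% up and 6.25% down), with a median of 0.32. By complex, saline had 4, 2, 1, 3 and 4 rises for complexes I to V, and ATG had 5, 3, 3, 5 and 5, besides the fall of Cox4i2. After both, 13 members passed, which is 92.9% of the calls after saline and 59.1% of those after ATG. The share of all genes that passed after both was not computed, so these shares cannot be read as particular to the members. Ndufb5, an accessory subunit gene named because it was the only call not shared after saline, rose there by 0.51 and did not pass after ATG (0.39). Without the cardiac-rich pair 9 members passed after saline (9.65% of all genes), 7 of them among the first 14, and 14 after ATG (9.09%), all among the first 22. The count after saline fell to 4 without saline room air 3 (4.62% of all genes), and was 6 without saline hyperoxia 2 (7.29%). It was 7 without saline room air 2 (5.54%) or saline hyperoxia 3 (4.73%). The count after ATG was 12 without ATG room air 1 or ATG room air 3 (7.17% of all genes in each fit). It was 13 without ATG hyperoxia 2 (8.39%). Libraries of the groups did not overlap for 43 members above and 2 below after saline (14.6% of all genes above and 14.9% below). After ATG this held for 39 above and 1 below (13.7% and 13.9%). Over all 12 libraries it held for 20 above and 1 below (5.41% and 5.61%).

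The injections share no libraries, and their values are given side by side. Cox8a rose by 0.57 (SE 0.08, adjusted p = 0.000821) after saline and by 0.56 (SE 0.08, adjusted p = 0.000663) after ATG, and Cox6b2 by 1.14 (SE 0.24) and 0.89 (SE 0.23). The call for Cox8a held in every alternative fit run after either injection. That for Cox6b2 did so after saline, and after ATG it ended without ATG room air 1 (0.82), ATG room air 3 (0.79) or ATG hyperoxia 3 (0.65). Atp5e rose by 0.42 (SE 0.10) and 0.59 (SE 0.09), after saline not without saline room air 3 or saline hyperoxia 3 (0.42 and 0.38). Ndufa9 rose by 0.53 (SE 0.11) and 0.54 (SE 0.11), after saline not without the 3 muscle-rich libraries (0.39). Sdhd rose by 0.40 (SE 0.11) and 0.58 (SE 0.11), Sdhc by 0.31 and 0.41, and Uqcrc2 by 0.36 and 0.44. After saline the calls for Sdhd, Sdhc and Uqcrc2 ended without the cardiac-rich pair (0.35, 0.27 and 0.32) and without several single libraries of the saline groups. Cox4i2 fell by 0.96 (SE 0.20, adjusted p = 0.00587) after ATG, a call that no alternative ended, and did not pass after saline (−0.58, SE 0.20, adjusted p = 0.084). Its interaction of drug and oxygen did not pass (−0.37, SE 0.28).

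ATG was compared with saline to ask what the drug changed in each oxygen condition. No member passed in room air, in hyperoxia, averaged over both, or in the interaction, by edgeR, DESeq2 or limma-voom. At unadjusted p under 0.05 edgeR gave 1, 6, 9 and 2 members, DESeq2 1, 7, 7 and 2, and limma-voom 1, 7, 8 and 2. Of all 15761 genes edgeR gave 949, 897, 1335 and 465 at that cutoff. The count over all genes was not made for DESeq2 and limma-voom. Few genes of any kind passed by edgeR: 0% in room air, 0.00634% in hyperoxia, 0.0444% averaged and 0% for the interaction. DESeq2 called 0.102%, 0.0698%, 0.596% and 0% of all genes, and limma-voom 0%, 0.0190%, 0.0571% and 0%. The members' median was 0.11 in room air, 0.12 in hyperoxia and 0.11 averaged, against 0.01, 0.00 and 0.00 for all genes, with a positive estimate for 64, 70 and 72 of 80. Without the cardiac-rich pair the median in hyperoxia was 0.09 for the 29 accessory genes of complex I (0.12 with all libraries). It was then 0.09 for the 5 small subunit genes of complex III (0.15), 0.13 for the 10 general forms of complex IV (0.12) and 0.15 for complex II (0.16). Summed levels overlapped between the injections, at 4199 to 4479 CPM after saline and 4370 to 4769 CPM after ATG in room air, and at 5081 to 5858 CPM and 5510 to 6521 CPM in hyperoxia. In room air the libraries of the injections did not overlap for 15 members above and 1 below (6.26% of all genes above and 5.72% below), and in hyperoxia for 8 above and none below (5.55% and 5.54%). Averaged over oxygen this held for no member (0.222% of all genes above and 0.197% below). Cox7a2 had the smallest p averaged over oxygen, with 0.25 (SE 0.08, unadjusted p = 0.00733, adjusted p = 0.368). In hyperoxia it was Ndufs1, with 44.3 ± 5.6 CPM after saline and 57.0 ± 7.3 CPM after ATG (mean ± SD, n = 3), a difference of 0.36 (SE 0.12, unadjusted p = 0.00699, adjusted p = 0.673). These 2 genes were named after their values were seen. At these standard errors, differences of the size of the median, 0.11, were not detectable for single genes.

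Members that passed the averaged hyperoxia test stood at higher levels, with smaller standard errors, than those that did not. The 40 that passed had a median of 51.1 CPM, a median SE of 0.08 and 39 positive estimates. The 40 that did not pass had a median of 17.5 CPM, a median SE of 0.11 and 37 positive estimates, with a median of 0.21. Of the members 26 overlap another annotated gene, 14 of them a protein-coding gene, and 10 have pseudogene copies named after them, so that some of their reads could have been counted elsewhere. Among the members named here, Atp5a1 overlaps Haus1, Atp5d overlaps Cbarp, Cox7a2 overlaps Tmem30a and Ndufa13 overlaps Tssk6, all protein-coding. Uqcrc2 overlaps Pdzd9 and Ndufa4l2 overlaps Shmt2, also protein-coding, besides the overlap of Cox4i2 given above. Atp5b, Atp5c1, Atp5sl, Ndufa9, Ndufs1, Sdhc and Uqcrh overlap other annotated genes. Pseudogene copies are named after Atp5c1, Atp5k, Cox5b, Ndufab1 and Uqcrh. The values of all these members are uncertain to that extent.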

How the data were processed

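The authors deposited raw counts per gene symbol for 12 RNA-seq libraries, 1 column per library and without normalization. Per the labels' protocols, RNA was amplified with the Ovation V2 kit, made into Nextera XT libraries and sequenced as paired 75 bp reads. Per the submitters' processing notes, Bowtie2, Cufflinks and DESeq were used with mm10 (no versions). Which tool counted the reads, and with what strand setting, is not given in the sources used here. Columns were matched to samples by name. Replicates differed by more than sampling noise (chi-square per degree of freedom 6.83 to 41.9).

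Genes were kept by filterByExpr (minimum count 10, minimum total 15), scaled by TMM and fitted with 1 mean per group over all 12 libraries by edgeR's quasi-likelihood test (edgeR 4.0.16, R 4.3.3, 8 residual degrees of freedom). Two-sided p-values were adjusted by Benjamini-Hochberg over 15761 genes. The comparisons were hyperoxia against room air after each injection and averaged, ATG against saline in each oxygen condition and averaged, and the interaction. Scripts were tested on simulated data. Alternatives were DESeq2 1.42.0, limma-voom (limma 3.58.1), RLE size factors, no filter, a replicate block, the 6 libraries of a contrast alone, a cardiac marker covariate, no cardiac-rich libraries and each library left out. A fit without 3 muscle-rich libraries was added after the values were seen. Where a group kept fewer libraries, its spread is taken from all groups. Levels per kilobase use the shortest principal transcript of GENCODE for GRCm38, and positions are from RefSeq GRCm38.p6, where 77 members matched by symbol and 3 by synonym. Promoter sequences are from the same RefSeq build.

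Members, lists and the naming rule were chosen with earlier results of these data known. The rule names, per comparison, up to 10 members that pass, otherwise the 2 with the smallest adjusted p per complex and direction. For the averaged hyperoxia comparison it adds the highest and lowest estimate per complex, and in all a fixed set of core and isoform genes. Other genes named are muscle forms, cytochromes, up to 4 passing genes per list and markers. No list was given a test of its own. The lists hold cardiomyocyte, skeletal muscle, adipocyte, erythroid, macrophage, neutrophil, alveolar type 1 and 2, club and ciliated, endothelial, pericyte and smooth muscle, and thymocyte markers, assembly genes and citrate cycle genes. Values of 1 member and of 1 citrate cycle gene are not reported here, though both are in the counts.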

Additional observations from a re-analysis of the deposited data

How the results depend on the processing

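No member's call changed direction in any alternative. Leaving out 1 library at a time, the number of members that passed for hyperoxia ran from 4 to 19 after saline. It ran from 12 to 28 after ATG and from 33 to 45 averaged. Of all genes 4.62% to 10.6% then passed after saline and 7.17% to 12.8% after ATG, against 9.19% and 11.7% with all libraries. The averaged share is not given for these fits. Without the cardiac-rich pair it was 9, 14 and 28, and without the 3 muscle-rich libraries 4, 15 and 25. With the replicate number as a block 14, 27 and 39 members passed (8.60%, 11.2% and 21.8% of all genes). The replicate numbers share no stated origin. Only 2 of 18 same-numbered pairs of libraries had correlated deviations above 0.1 (range −0.16 to 0.28). Both were saline hyperoxia with ATG hyperoxia: replicate 2, the cardiac-rich pair (0.28), and replicate 3 (0.13). Differently numbered pairs were not compared, so whether the numbers mark a pairing is not known. All other alternatives stayed within 1.5 times of 14, 22 and 40. No alternative gave a call for the drug or the interaction. Of the calls, 2 of 14 after saline (Cox6b2 and Cox8a), 10 of 22 after ATG and 23 of 40 averaged held in every alternative run. Counting error and 3 libraries a group limit the precision for members of low level.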

Other observations

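Markers of lung cell types showed these values for hyperoxia averaged over injection, beside 22.4% of all genes that passed. Of 7 alveolar type 1 markers 4 rose and 1 fell: Aqp5, a water channel, by 0.62 and Hopx by 0.42, and Ager by 0.31 and Clic5 by 0.26, while Cav1 fell by 0.31. Of 8 alveolar type 2 markers the phosphate transporter Slc34a2 rose by 0.28, and Sftpa1 and Etv5 fell by 0.57 and 0.25; the surfactant protein genes Sftpc (0.10) and Sftpb (0.10) did not pass. Of 7 endothelial markers the apelin receptor Aplnr fell by 0.99, Car4 fell by 0.22 and Cldn5 rose by 0.30. Of 6 macrophage markers tested Cd68 rose by 0.46 and Lyz2 fell by 0.73. Of 8 club and ciliated markers Scgb1a1 fell by 0.49. The calls for Aqp5, Hopx, Cav1, Slc34a2, Sftpa1, Aplnr and Lyz2 held in every alternative run. That for Scgb1a1 ended without the 3 muscle-rich libraries (−0.47). Other calls ended when any 1 of several libraries was left out. For Ager these were saline room air 3, ATG room air 1 or 3, saline hyperoxia 1 or 3, or ATG hyperoxia 2, and for Clic5 saline room air 1 or 3, ATG room air 3, or saline hyperoxia 1. For Etv5 they were saline room air 1, ATG room air 3 or saline hyperoxia 2, and for Car4 saline room air 1 or 2, ATG room air 1 or 2, saline hyperoxia 2 or ATG hyperoxia 2. For Cldn5 they were saline room air 3, ATG room air 1 or 3, saline hyperoxia 1 or 3, or ATG hyperoxia 1, and for Cd68 saline room air 3, ATG room air 1 or 3, saline hyperoxia 1 or ATG hyperoxia 3. Without the cardiac-rich pair Etv5 (−0.17) and Car4 (−0.16) did not pass either.

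Of the erythroid (4), neutrophil (5) and thymocyte (4) markers tested, none passed edgeR's test for hyperoxia averaged over injection and none had an unadjusted p under 0.05 there. After saline alone 1 of 4 thymocyte markers rose, Rag1 by 2.86 (SE 0.72, edgeR adjusted p = 0.023). That call ended without saline hyperoxia 2 (1.77), without saline room air 1 (2.89), 2 (3.06) or 3 (2.68), without the cardiac-rich pair (1.77) and by limma-voom (2.10). For ATG against saline in hyperoxia all 4 thymocyte markers had an unadjusted p under 0.05, with a median of −3.67, and none passed. In the averaged comparison, of the cardiomyocyte markers 1 of 10 rose (Nppa), of the skeletal muscle markers 1 of 6 (Myl1) and of the adipocyte markers 1 of 6 (Cidea). None of these 3 calls held without the cardiac-rich pair: Nppa then stood at 0.22 and Myl1 at 1.79, and Cidea did not pass the filter on low counts. Single libraries and limma-voom also ended each of them, and Myl1 turned to −1.34 without the 3 muscle-rich libraries. All 6 thymocyte markers and 4 of 7 adipocyte markers were higher in saline hyperoxia 2 than in every library other than ATG hyperoxia 2, and 6 of 7 adipocyte markers were higher in ATG hyperoxia 2 than in every library other than saline hyperoxia 2.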
